A study of Rattus norvegicus with 10 samples.

Results

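The genes described here are nuclear genes for the subunits of the mitochondrial respiratory chain and of ATP synthase, with some of their assembly factors and 1 pseudogene by its symbol, Cox6c-ps1, measured in rat pancreatic islets. Members were taken by symbol from the array's annotation: every probe set assigned to 1 gene whose symbol starts with Nduf, Uqcr, Atp5, Cox4, Cox5, Cox6, Cox7 or Cox8, or is Sdha, Sdhb, Sdhc, Sdhd, Cyc1 or Cycs. This gave 97 probe sets for 87 genes, of 14217 genes represented on the array. Where a gene has more than 1 probe set, as 9 of the 87 do, the one with the brightest mean signal stands for it. By role, 6 are core subunits of complex I, 30 its accessory subunits and 6 its assembly factors, 4 belong to complex II, 8 to complex III with cytochrome c1, 17 to complex IV, 6 to the F1 head of ATP synthase with its inhibitor, and 10 to its F0 membrane part and peripheral stalk.

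Islet RNA came from 10 arrays, 2 for each of 5 groups of rats aged 40 days, fasted males by the protocols, without any drug treatment named. DR+/+ and JB rats carry no lyp mutation, resist diabetes and can be induced to develop it, and JBlyp/lyp rats are homozygous at the lyp locus and diabetes prone. These 3 groups are called BB here. F344 and F344lyp rats are the healthy controls, without and with the lyp locus in the strain name. The titles and the protocols name the animals differently. For islet isolation the protocols list DRlyp/lyp, F344lyp/lyp and WF rats, while the titles have JBlyp/lyp, F344lyp and JB. No text pairs these names. The protocols derive DR+/+ and JBlyp/lyp animals from the same kind of breeder, heterozygous DRlyp/+. How JB rats without lyp relate to DR is not stated. The groups are called here as in the titles. The titles call the arrays biological replicates and do not say whether an array holds islets of 1 animal or a pool, so the p-values rest on how far the 2 arrays of a group lie apart.

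Electrons from NADH enter the chain at complex I and those from succinate at complex II, and pass through complex III and cytochrome c to oxygen at complex IV. The proton gradient built on the way drives ATP synthase. In beta cells this ATP closes potassium channels, which links glucose oxidation to insulin release. Most subunits are encoded in the nucleus, and the transcription factors NRF1, GABPA (an ETS factor) and YY1 are known to bind promoters of many of these genes.

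The sequence just upstream of the start is printed for 5 members that hold these motifs: 4 that were lower in BB islets and, for contrast, Uqcrc2, which was not. Each line gives the 150 bases before the start site that the RefSeq promoter table uses on assembly GRCr8, 5′ to 3′ on the gene's strand. For Cox8a, Ndufa11 and Uqcrc2 that site is the end of the annotated gene. The annotated gene reaches 72 bases further upstream for Atp5me and 620 for Atp5pf, so the Atp5pf sequence lies inside the gene's span. Capitals mark the palindromic NRF1 consensus, the ETS letters CCGGAAG or the YY1 letters AAGATGGCG, on either strand, so that an ETS match on the other strand reads CTTCCGG.
Atp5me, chr14:1464710-1464859 (+ strand): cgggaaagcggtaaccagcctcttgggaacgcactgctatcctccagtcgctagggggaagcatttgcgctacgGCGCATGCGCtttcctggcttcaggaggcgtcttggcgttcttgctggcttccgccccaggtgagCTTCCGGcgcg
Atp5pf, chr11:37375102-37375251 (- strand): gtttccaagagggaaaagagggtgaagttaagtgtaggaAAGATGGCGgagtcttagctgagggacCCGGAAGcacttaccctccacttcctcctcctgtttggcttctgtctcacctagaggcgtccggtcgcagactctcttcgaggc
Cox8a, chr1:213833624-213833773 (- strand): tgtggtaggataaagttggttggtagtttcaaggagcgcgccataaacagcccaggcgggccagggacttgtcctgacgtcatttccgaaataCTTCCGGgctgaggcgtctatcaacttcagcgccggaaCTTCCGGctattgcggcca
Ndufa11, chr9:1637464-1637613 (+ strand): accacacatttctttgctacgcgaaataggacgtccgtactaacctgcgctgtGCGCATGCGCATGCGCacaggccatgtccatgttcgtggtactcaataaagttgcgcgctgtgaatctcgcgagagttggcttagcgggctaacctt
Uqcrc2, chr1:184599090-184599239 (+ strand): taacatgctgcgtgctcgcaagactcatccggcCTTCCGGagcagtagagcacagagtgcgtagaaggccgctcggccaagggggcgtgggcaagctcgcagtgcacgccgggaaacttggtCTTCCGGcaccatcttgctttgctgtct
Atp5me holds an NRF1 and an ETS match, Atp5pf a YY1 and an ETS match, Cox8a and Uqcrc2 only ETS matches, and Ndufa11 overlapping NRF1 matches.

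RefSeq promoter windows of 300 bases, from 250 before the start to 50 after it, were found for 78 of the 87 members, and for 22 of these the annotated gene reaches further upstream than the start used. On either strand the NRF1 consensus stood in 15 of these 78 windows (19.2%), against 8.5% of 11700 genes represented on the array and 4.71% of all 27457 windows. The ETS letters stood in 22 (28.2%, against 15.1% and 9.22%) and the YY1 letters in 11 (14.1%, against 3.14% and 1.93%). At least 1 of the 3 motifs stood in 41 windows. The median GC content was 56% in members, 60% in genes of the array and 52.3% in all windows. A match describes the letters only, and no binding was measured.

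Across the 10 arrays, members were lower in BB islets than in F344 and F344lyp islets, and the DR+/+ arrays were the lowest. The median log2 intensity of the 87 members was 8.44 and 8.40 on the DR+/+ arrays, 9.19 and 8.68 on the JB arrays, 9.46 and 8.65 on the JBlyp/lyp arrays, 9.60 and 9.33 on the F344 arrays, and 9.69 and 9.74 on the F344lyp arrays. The first JBlyp/lyp array lies within the range of the F344 arrays and the other 5 BB arrays lie below all 4 F344 and F344lyp arrays. A log2 value of 1 more stands for a doubled intensity. Levels of different genes are not compared, since each probe set has its own brightness.

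**Figure D1:**
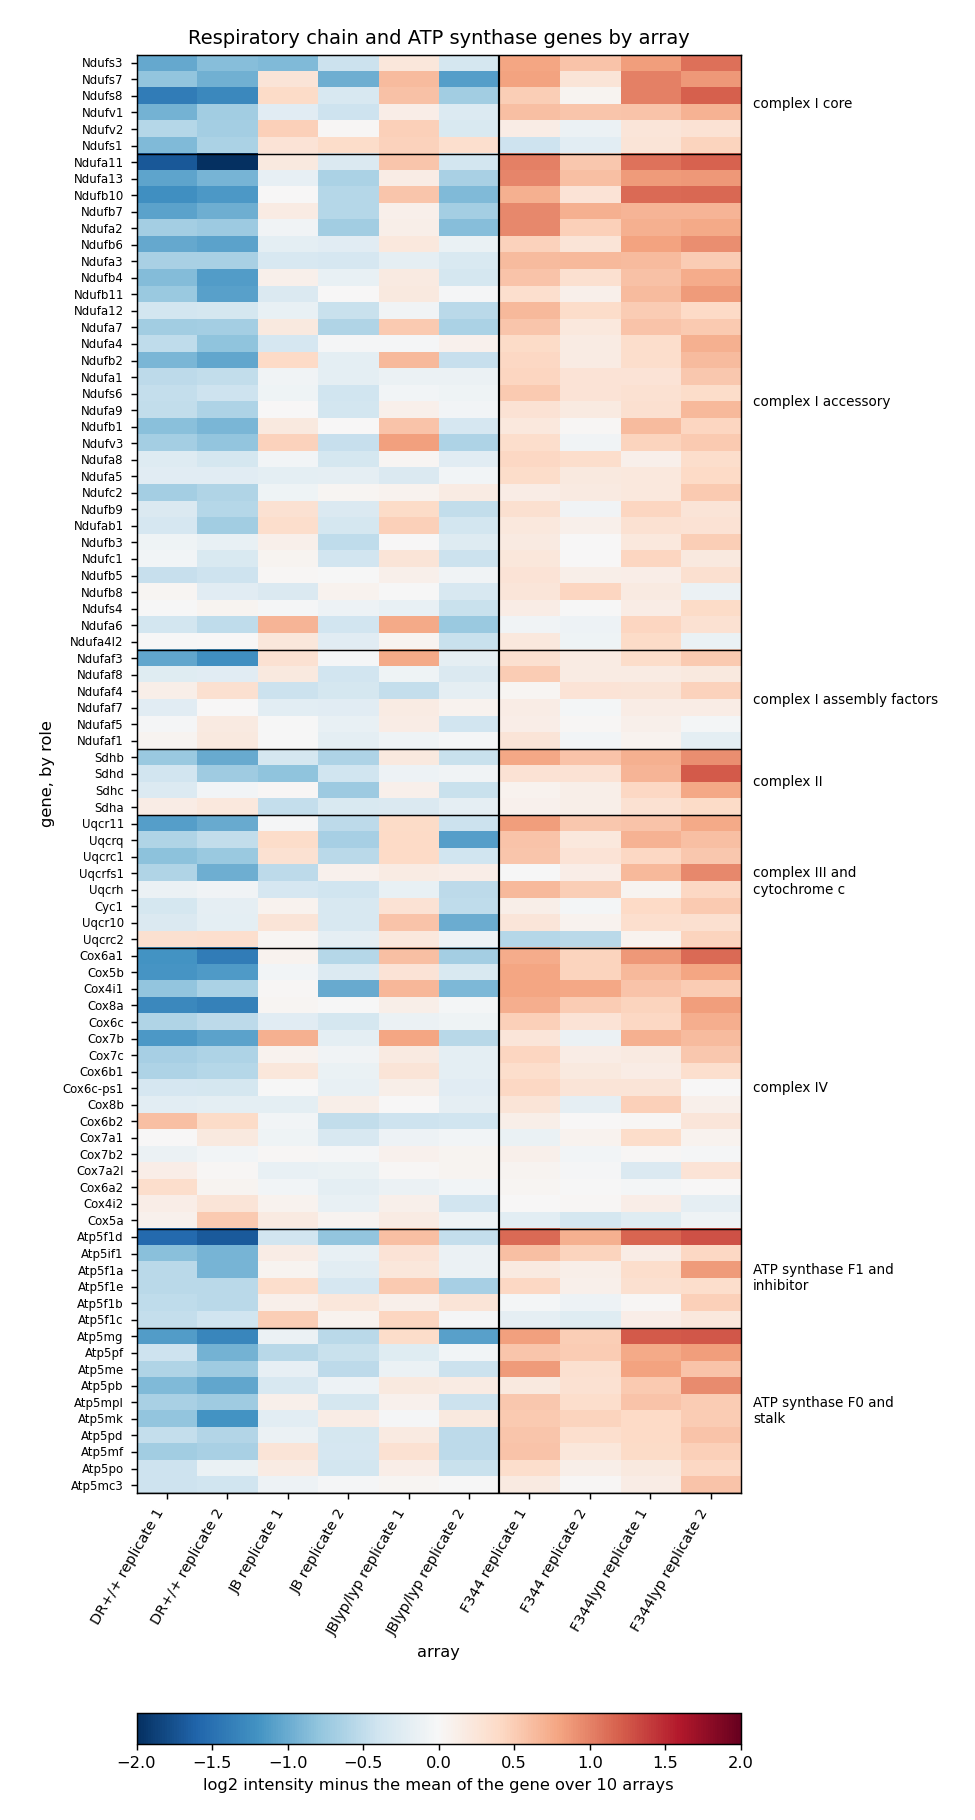
Log2 intensity of each of the 87 genes (rows, by role and, within a role, by the difference between BB and F344) on each of 10 arrays (columns), minus the gene's mean over the arrays, with blue below and red above that mean. The 6 BB arrays stand left of the vertical line, where the 2 DR+/+ arrays are blue for most genes, and the 4 F344 and F344lyp arrays stand right of it.

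For BB against F344, the average of the 3 BB groups was set beside that of the 2 F344 groups, each group weighing the same. With limma and Benjamini-Hochberg adjustment over 31042 probe sets, 58 of the 87 members were called lower in BB islets at an adjusted p under 0.05 and 1 was called higher. Of all 14217 genes, 24.6% were called lower and 13.3% higher. The median member difference was -0.60, beside -0.04 over all genes, and members ranged from -1.79 to 0.38. In 31 members every BB array lay below every F344 and F344lyp array, which held for 10.6% of all genes, and in 1 member every BB array lay above (4.9% of all genes). Among members with a mean of at least 6, 57 of 76 were called lower and 0 higher, beside 31% of the 8635 genes that bright called lower. No member has probe sets called in opposite directions. Of the members called lower with more than 1 probe set, Sdhd had both called lower. The dimmer probe sets of Atp5if1 (-0.34 and 0.08), Atp5me (-0.16), Atp5po (-0.11), Ndufa7 (0.04) and Ndufa9 (-0.01) were not called, with means of 3.41 to 5.93. For Ndufv3 only the dimmer probe set was called lower.

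These calls rest on the spread between arrays of a group, not between groups. With the group as a random block, 9 members stayed called, all lower: Ndufs3, Ndufv1, Ndufa3, Ndufa12, Ndufa13, Sdhb, Cox6c, Atp5me and Atp5pf. Of all genes 2.83% were called lower in that fit. The median over all genes was 6.55 to 6.68 on BB arrays and 6.71 to 6.89 on F344 and F344lyp arrays, without overlap. With each array centred on its median gene, the median of all genes moved from -0.04 to 0.16. The median member difference was then -0.40, with 44 members called lower and 2 higher, while the split of all genes turned to 16.2% lower and 31.3% higher.

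**Figure D2:**
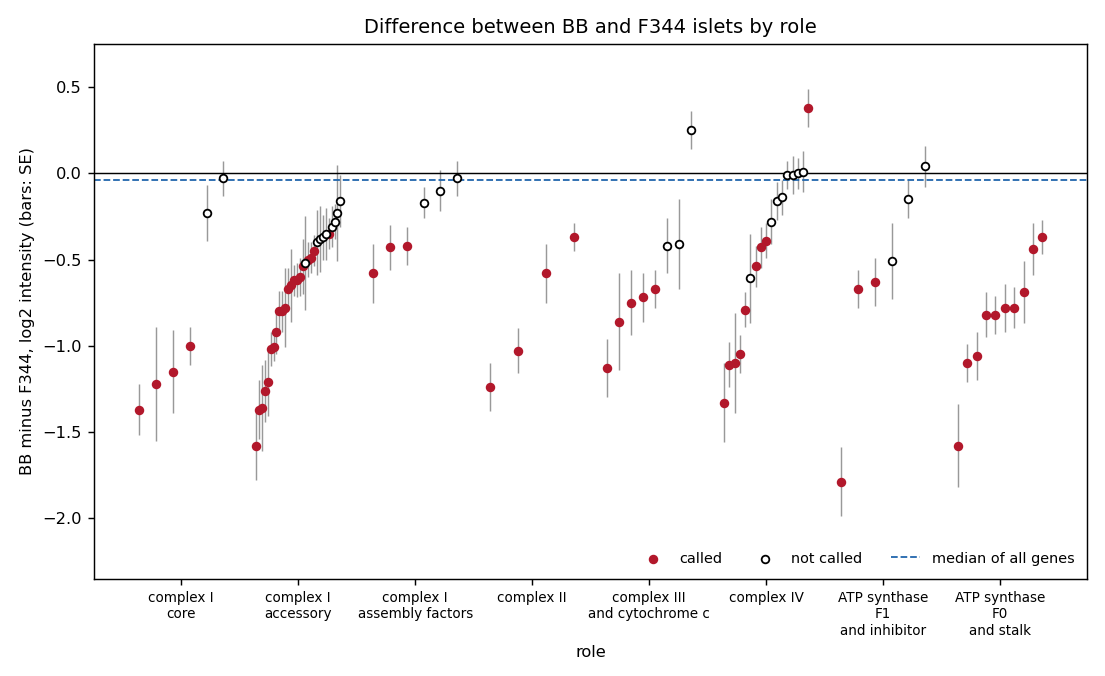
Difference between BB and F344 islets in log2 intensity (vertical axis) for each of the 87 genes, in 8 roles (horizontal axis). Bars are the standard errors of the fit, filled points are called at an adjusted p under 0.05, and the dashed line is the median of all genes at -0.04. All 10 genes of the F0 part and stalk and all 4 of complex II are filled and below 0.

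The core subunits of complex I, which carry its flavin and iron-sulfur clusters or hold the quinone site, had 4 of 6 members called lower, with a median of -1.08. Ndufs3 read 6.88 and 7.05 on the DR+/+ arrays, 7.02 and 7.47 on the JB arrays, 8.13 and 7.54 on the JBlyp/lyp arrays, 8.69 and 8.46 on the F344 arrays, and 8.73 and 9.0 on the F344lyp arrays. All 6 BB values lie below all 4 F344 values, and the difference was -1.37 (SE 0.15, adjusted p = 0.000124 with limma). Ndufv1, which binds the flavin, read 8.39 to 9.47 on BB arrays with a median of 8.98 and 9.89 to 10.02 on F344 arrays. The sides do not overlap, and it fell by 1.0 (SE 0.11). Ndufs7 and Ndufs8, which hold iron-sulfur clusters near the quinone site, fell by 1.22 (SE 0.33) and 1.15 (SE 0.24), with BB and F344 arrays that overlap. Ndufs1, the largest iron-sulfur subunit, and Ndufv2 were not called, at -0.03 (95% interval -0.25 to 0.19) and -0.23 (-0.59 to 0.12).

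Of the accessory subunits of complex I, which surround and stabilise its core, 21 of 30 were called lower and 0 higher, with a median of -0.61. All 30 differences were below 0. Ndufa11, a membrane arm subunit, read 5.74 and 5.23 on the DR+/+ arrays, 7.64 and 7.15 on the JB arrays, 8.0 and 7.07 on the JBlyp/lyp arrays, 8.44 and 7.98 on the F344 arrays, and 8.52 and 8.62 on the F344lyp arrays. The DR+/+ values stand far below the rest and the first JBlyp/lyp value just above the second F344 value, with a difference of -1.58 (SE 0.20, limma adjusted p = 0.000308). Ndufa3, another small membrane arm subunit, lay at 8.86 on both DR+/+ arrays, at 9.20 and 9.18 in JB, 9.34 and 9.21 in JBlyp/lyp, 10.15 and 10.16 in F344, and 10.15 and 10.02 in F344lyp. Its arrays within a group differ by no more than 0.14 and its sides stand well apart, and it fell by 1.01 (SE 0.08, limma adjusted p = 2.65e-05).

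Ndufa13, Ndufb10 and Ndufb7 fell by 1.37 (SE 0.17), 1.36 (SE 0.25) and 1.26 (SE 0.18). Ndufb10 overlaps between the sides, and Ndufa13 and Ndufb7 do not. Ndufa4, named for complex I but now counted as a subunit of complex IV, fell by 0.67 (SE 0.12). Its paralog Ndufa4l2, known as a hypoxia-induced gene, was not called, at -0.16 (SE 0.15). Ndufab1, the mitochondrial acyl carrier protein, was not called either, at -0.38 (95% interval -0.79 to 0.04).

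Among the assembly factors of complex I, 3 of 6 were called lower, with a median of -0.30. Ndufaf3 and Ndufaf4, which act together early in assembly, fell by 0.58 (SE 0.17) and 0.42 (SE 0.11), and Ndufaf8, a partner of Ndufaf5, fell by 0.43 (SE 0.13). Their patterns over the groups differ: Ndufaf3 was lowest in DR+/+ islets (6.78 and 6.59, against 7.64 to 8.57 in the other BB arrays), while Ndufaf4 was higher in DR+/+ (8.11 and 8.31) than on any JB or JBlyp/lyp array (7.51 to 7.82). Ndufaf1, Ndufaf5 and Ndufaf7 were not called, at -0.03, -0.10 and -0.17.

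All 4 subunits of complex II, which is also the succinate dehydrogenase of the citric acid cycle, were called lower. Sdhb, the iron-sulfur subunit, read 8.32 and 8.06 on the DR+/+ arrays, 8.72 and 8.45 on the JB arrays, 9.27 and 8.62 on the JBlyp/lyp arrays, 9.84 and 9.64 on the F344 arrays, and 9.78 and 10.00 on the F344lyp arrays. The sides do not overlap, and the difference was -1.24 (SE 0.14, limma adjusted p = 0.000179). Sdhd, a membrane anchor, fell by 1.03 (SE 0.13), and its second probe set fell by 0.79 (SE 0.10). Sdhc, the other anchor, fell by 0.58 (SE 0.17). Sdha, the flavoprotein, fell by 0.37 (SE 0.08) and stands apart from the others in DR+/+ islets: it read 8.69 and 8.74 there, 8.06 and 8.23 in JB, 8.25 and 8.35 in JBlyp/lyp, 8.62 and 8.66 in F344, and 8.84 and 8.92 in F344lyp. The DR+/+ values thus lie above the F344 values and below the F344lyp values.

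In complex III 5 of 8 members were called lower, with a median of -0.69. Uqcr11, a small subunit, read 8.28 and 8.38 in DR+/+, 9.36 and 8.86 in JB, 9.77 and 8.96 in JBlyp/lyp, 10.22 and 9.93 in F344, and 9.95 and 10.15 in F344lyp. The sides do not overlap, and it fell by 1.13 (SE 0.17, limma adjusted p = 0.000816). Uqcrq fell by 0.86 (SE 0.28), Uqcrc1, a core protein, by 0.75 (SE 0.19), Uqcrfs1, the Rieske iron-sulfur protein, by 0.72 (SE 0.14), and Uqcrh, the hinge protein, by 0.67 (SE 0.11). Uqcrc2, the partner of Uqcrc1, showed another order: 9.82 and 9.84 in DR+/+, 9.54 and 9.32 in JB, 9.71 and 9.41 in JBlyp/lyp, 8.93 and 8.97 in F344, and 9.57 and 9.95 in F344lyp. F344 was its lowest group, and over BB and F344 it was not called, at 0.25 (95% interval 0.01 to 0.50, limma adjusted p = 0.106).

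In complex IV 8 of 17 members were called lower and 1 higher, with a median of -0.39. Cox8a read 9.74 and 9.67 in DR+/+, 11.06 and 11.02 in JB, 11.15 and 10.99 in JBlyp/lyp, 11.76 and 11.53 in F344, and 11.48 and 11.87 in F344lyp. The groups fall into 3 levels, with DR+/+ lowest and the JB lines between it and F344, and the difference was -1.05 (SE 0.11, limma adjusted p = 8.83e-05). Cox6a1 fell by 1.33 (SE 0.23), Cox5b by 1.11 (SE 0.13), Cox4i1 by 1.10 (SE 0.29) and Cox6c by 0.79 (SE 0.10). Of these, Cox5b and Cox6c do not overlap between the sides. The pseudogene Cox6c-ps1, dim at a mean of 5.02, is among the 8 and fell by 0.39 (SE 0.10, limma adjusted p = 0.0159). Cox7a2l, known for joining complexes III and IV, was not called, at -0.01 (95% interval -0.26 to 0.24).

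The 1 member called higher, Cox5a, rests on a dim probe set. That probe set read 5.68 to 6.29 on BB arrays with a median of 5.89 and 5.41 to 5.68 on F344 arrays, a rise of 0.38 (SE 0.11, limma adjusted p = 0.027). A brighter probe set for Cox5a, left out of the members because it is also assigned to LOC100361008, read 8.62 to 9.36 on BB arrays and 9.56 to 10.25 on F344 arrays and fell by 0.81 (SE 0.16, adjusted p = 0.00341). The direction for Cox5a is therefore uncertain. The 6 isoforms known from heart, skeletal muscle, lung or testis (Cox4i2, Cox6a2, Cox6b2, Cox7a1, Cox7b2 and Cox8b) had means of 2.97 to 4.84, among the dimmest members, and none was called, with differences from -0.28 to 0.01.

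In the F1 head of ATP synthase 3 of 6 members were called lower, with a median of -0.57. Atp5f1d, the delta subunit of the central stalk, had the largest difference of all members. It read 7.95 and 7.83 on the DR+/+ arrays, 9.13 and 8.72 on the JB arrays, 10.11 and 9.04 on the JBlyp/lyp arrays, 10.65 and 10.22 on the F344 arrays, and 10.68 and 10.79 on the F344lyp arrays. Every BB value is below every F344 value, with the first JBlyp/lyp array closest, and the difference of -1.79 (SE 0.20, limma adjusted p = 0.000144) is 3.46-fold. The inhibitor Atp5if1 fell by 0.67 (SE 0.11) and the alpha subunit Atp5f1a by 0.63 (SE 0.14). The dimmer probe sets of Atp5if1 were not called, at -0.34 and 0.08.

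The catalytic beta subunit Atp5f1b behaved otherwise: it read 10.84 and 10.81 in DR+/+, 11.45 and 11.57 in JB, 11.44 and 11.60 in JBlyp/lyp, 11.30 and 11.25 in F344, and 11.37 and 11.83 in F344lyp. Only the DR+/+ arrays lie below the F344 arrays, and the difference of -0.15 (95% interval -0.39 to 0.09) was not called. The gamma subunit Atp5f1c was at 0.04 (-0.23 to 0.31) and the epsilon subunit Atp5f1e at -0.51 (-1.0 to -0.01, limma adjusted p = 0.107).

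All 10 members of the F0 part and peripheral stalk were called lower, with a median of -0.80 and a range of -1.58 to -0.37. Atp5mg, subunit g, read 5.21 and 5.03 in DR+/+, 6.21 and 5.80 in JB, 6.70 and 5.25 in JBlyp/lyp, 7.16 and 6.83 in F344, and 7.56 and 7.57 in F344lyp. The sides do not overlap, and it fell by 1.58 (SE 0.24, limma adjusted p = 0.000865). Atp5pf, coupling factor 6 of the stalk, read 7.72 to 8.60 on BB arrays and 9.16 to 9.49 on F344 arrays and fell by 1.10 (SE 0.11). Atp5me, subunit e, and Atp5pb, subunit b of the stalk, fell by 1.06 (SE 0.14) and 0.82 (SE 0.11). A dimmer probe set of Atp5me, with a mean of 4.36, was not called, at -0.16. Atp5mc3, the one c-ring gene with a probe set of its own, had the smallest fall, 0.37 (SE 0.10).

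**Figure D3:**
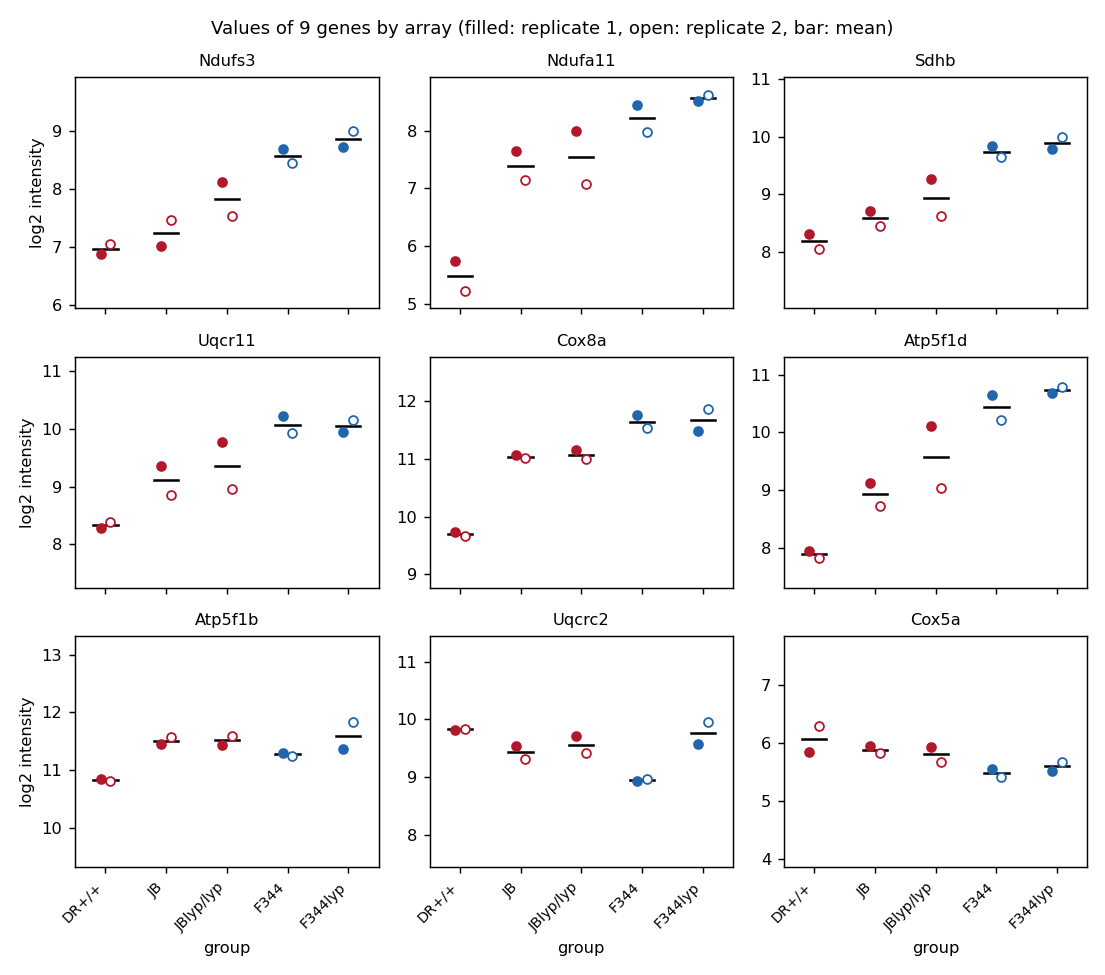
Log2 intensity of 9 genes (panels) by group, with each array as a point (filled for replicate 1, open for replicate 2), BB groups in red, F344 groups in blue and bars at the group means of 2 arrays. Every panel spans the same height on the log2 scale. Ndufs3, Sdhb, Uqcr11, Cox8a and Atp5f1d have every BB array below every F344 and F344lyp array, while Atp5f1b, Uqcrc2 and the dim Cox5a probe set do not.

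Beside Cox5a, 8 probe sets of member genes are shared with a second gene or pseudogene and were left out. Those of Atp5mc1 and Atp5mc2, the other c-ring genes, fell by 1.54 and 1.15, those of Cox7a2, Ndufs5 and Uqcrb by 0.72, 0.69 and 0.27, and that of Ndufa10 was not called. The 2 probe sets of cytochrome c (Cycs) differ: the brighter was at -0.03 and was not called, and the other fell by 0.80. No probe set assigned to Cycs alone was found.

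Members that hold the ETS letters in the 300-base window were called lower in 18 of 22 cases, with a median difference of -1.04. The counts were 12 of 15 for NRF1 (median -0.52), 8 of 11 for YY1 (-0.62) and 20 of 37 for members with none of the 3 (-0.51). Their median signals were 9.23 for ETS, 9.11 for NRF1, 8.73 for YY1 and 9.20 for none. Beside these counts stand 58 of all 87 members and 24.6% of all genes called lower. The counts describe these members, and the difference between them was not tested. Uqcrc2 holds the ETS letters and was not lower.

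Levels of other tissues' markers moved with the same contrast, in which 24.6% of all genes were called lower and 13.3% higher. Of 23 acinar enzyme markers, 23 were lower in BB islets with a median of -2.26: the list's median level was 9.72 to 11.89 on BB arrays and 12.67 to 13.62 on F344 arrays. Of 13 macrophage markers, 12 were lower (median -0.98), at 4.97 to 5.48 against 5.98 to 6.59. Endothelial markers were higher in 6 of 9 and lower in 1 (median 0.65), although the list's median level was 7.98 to 8.76 on BB arrays and 8.65 to 8.95 on F344 arrays. Fibroblast and stellate markers were higher in 4 and lower in 2 of 10. Against F344, 8 of these 10 were higher and 2 lower in DR+/+ (median 1.25), and 1 was higher and 1 lower in JB (median -0.02). Of all genes, 16.3% were higher and 23.8% lower in DR+/+, and 4.79% higher and 8.22% lower in JB. In JBlyp/lyp against F344lyp the median of these fibroblast and stellate markers was -0.18. Of 10 beta cell markers 7 were lower, with list medians of 10.08 and 9.77 on the DR+/+ arrays and 12.04 to 12.42 on all others, and Ins1 at 13.86 to 14.27 over the 10 arrays. Islet hormone and acinar enzyme signal are thus both present on every array. In islet tissue of mixed cells, fewer cells of a type and less RNA per cell cannot be told apart. The 3′ minus 5′ signal of the Gapdh control, a measure of RNA quality, was 2.75 to 3.71 on BB arrays and 2.19 to 2.43 on F344 arrays, so that this measure and strain cannot be told apart. The same measure for the beta-actin control overlapped, at 2.57 to 4.17 on BB arrays, with 2.57 and 2.86 in DR+/+, and 2.72 to 3.06 on F344 arrays. With the Gapdh measure as a covariate 0 members were called, and 0.0141% of all genes lower and 0.00703% higher. The part of these cell types in the members' differences was not tested.

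Without lyp, 21 members were called lower in JB than in F344 islets and 1 higher, beside 8.22% and 4.79% of all genes, with a median of -0.42. Atp5f1d had the largest difference, -1.51 (SE 0.30), followed by Ndufs3 at -1.33 (SE 0.23), Ndufa13 at -1.19 (SE 0.26), Sdhb at -1.15 (SE 0.22), Ndufa2 at -1.09 (SE 0.31) and Ndufb7 at -1.04 (SE 0.27). Complex II had 3 of 4 called lower and the accessory subunits of complex I 8 of 30. In the same comparison 20 of 23 acinar markers (median -1.47) and 8 of 13 macrophage markers (-0.90) were lower and 0 higher. Of 10 beta cell markers 1 was lower and 0 higher (-0.15). The part of these cell types in the members' differences between JB and F344 was not tested. The 1 member called higher was Ndufs1, at 8.59 and 8.68 in JB against 7.89 and 8.10 in F344, a rise of 0.64 (SE 0.15, limma adjusted p = 0.0244). Leaving out 1 array moved the count of called members between 1 (without the first F344 array) and 30, with 6 without the second F344 array and 5 without the second JB array.

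With lyp on both sides, 24 members were called lower in JBlyp/lyp than in F344lyp islets and 0 higher, beside 11.3% and 4.7% of all genes, with a median of -0.52. Atp5mg fell by 1.60 (SE 0.37), Atp5f1d by 1.16 (SE 0.30), Ndufa13 by 1.11 (SE 0.26), Ndufa2 by 1.10 (SE 0.31), Sdhd by 1.04 (SE 0.21) and Ndufs3 by 1.03 (SE 0.23). Ndufs1 was at 0.04 and Uqcrc2 at -0.20, neither called. Acinar markers were lower in 22 of 23 (median -2.26) and macrophage markers in 12 of 13 (-1.03), with 0 higher in either list. Of 10 beta cell markers 1 was lower and 1 higher (0.09). The part of these cell types in the members' differences between JBlyp/lyp and F344lyp was not tested. Complex III had 0 of 8 called with limma and 5 of 8 at an unadjusted p under 0.05, which 31.2% of all genes reached. The count without 1 array ran from 1 (without the second F344lyp array) to 43 (without the first JBlyp/lyp array), with 9 without the first F344lyp array and 7 without the second JBlyp/lyp array.

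The group means in these comparisons come from different arrays, but both were taken from the same fit, with a shared estimate of each gene's spread. A gene therefore has the same standard error in both, and its calls in them are not independent. Of the 21 and 24 members called lower, 17 were called lower in both, which is 81.0% of the first list and 70.8% of the second. Of all 14217 genes, 1168 and 1605 were called lower and 756 in both. These 756 are 5.32% of all genes, which is not a share of the called lists. On that base the members have 17 of 87. The lists of called genes thus overlap widely outside the members too. Differences were below 0 in both for 76 of 87 members. The 17 are Ndufs3 and Ndufv1 of the core of complex I, Ndufa2, Ndufa3, Ndufa12, Ndufa13, Ndufb6 and Ndufb7 of its accessory subunits, Sdha, Sdhb and Sdhd of complex II, Cox5b, Cox6c and Cox8a of complex IV, and Atp5f1d, Atp5me and Atp5pf of ATP synthase. None belongs to complex III. The difference between the backgrounds with and without lyp was called for 0 members.

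**Figure D4:**
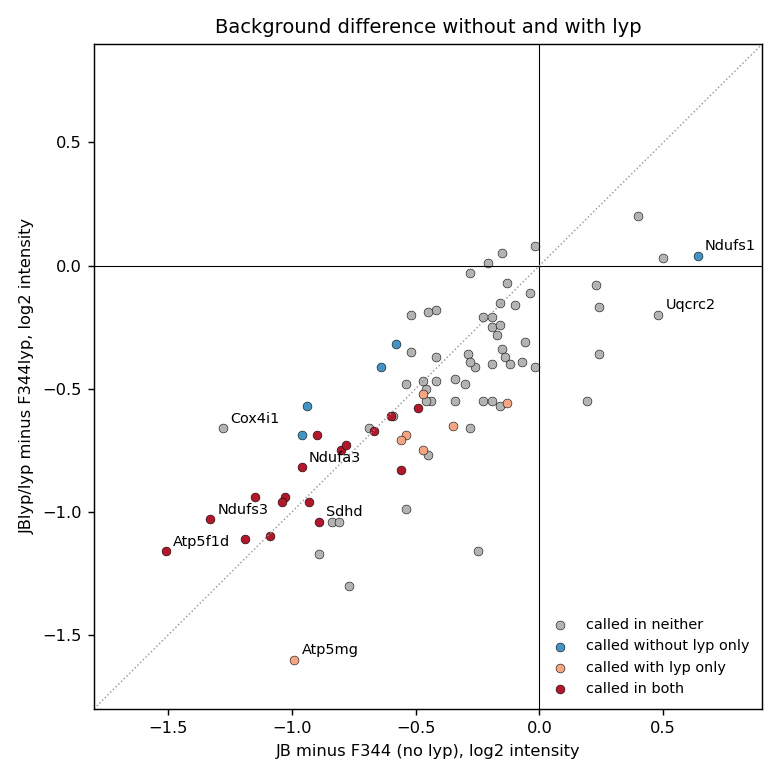
Differences in log2 intensity of the 87 genes between JB and F344 (horizontal axis) and between JBlyp/lyp and F344lyp (vertical axis), coloured by where the gene was called, with a dotted line of equal differences. The 76 genes in the lower left corner are below 0 on both axes, and Ndufs1 lies at 0.64 and 0.04.

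In DR+/+ islets 53 members were called lower than in F344 islets and 2 higher, beside 23.8% and 16.3% of all genes, with a median of -0.85. Ndufa11 fell by 2.72 (SE 0.31), Atp5f1d by 2.55 (SE 0.30), Cox8a by 1.94 (SE 0.16), Cox6a1 by 1.89 (SE 0.36), Atp5mg by 1.87 (SE 0.37) and Ndufb7 by 1.86 (SE 0.27). The core subunits of complex I had the lowest median, -1.40, with 4 of 6 called. The members called higher were Uqcrc2, a rise of 0.88 (SE 0.17), and Cox5a on its dim probe set, 0.59 (SE 0.17). Sdha was at 0.08 (95% interval -0.21 to 0.37) and was not called.

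DR+/+ and JB islets, neither with lyp, differed too: 26 members were called lower in DR+/+ and 3 higher, beside 18.4% and 15.5% of all genes, with a median of -0.40. Ndufa11 fell by 1.90 (SE 0.31), Ndufs8 by 1.37 (SE 0.37), Cox7b by 1.36 (SE 0.40), Cox8a by 1.34 (SE 0.16), Ndufaf3 by 1.27 (SE 0.26) and Ndufb2 by 1.08 (SE 0.32). The F1 head had 5 of 6 called lower: Atp5f1a, Atp5f1b, Atp5f1c, Atp5f1d and Atp5if1. Higher in DR+/+ were Sdha by 0.57 (SE 0.13), Ndufaf4 by 0.61 (SE 0.16) and the dim Cox6b2 by 0.76 (SE 0.17). Among genes with a mean of 6 or more, 26 of 76 members were called lower and 26.3% of all genes. Among those with a mean of 10 or more, which include Atp5f1b and Atp5f1c, 10 of 18 members were called lower and 43% of all genes. Marker lists moved in the same comparison. In DR+/+, 9 of 10 beta cell markers were lower than in JB (median -1.73), 17 of 23 acinar markers (-1.37) and 6 of 8 markers of other endocrine cells, with 2 higher (-1.60). Endothelial markers were higher in 8 of 9 (0.80), stellate and fibroblast markers in 7 of 10 (1.12) and ductal markers in 4 of 9 (0.54), while 4 of 13 macrophage markers were lower and 2 higher (-0.42). Their part in the members' differences was not tested.

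For the lyp genotype itself, 0 members were called in JBlyp/lyp against JB islets with limma, 4 had an unadjusted p under 0.05 (6.03% of all genes did), and of all genes 0.00703% were called higher and 0% lower. The median difference was 0.07, beside 0.02 over all genes. The largest were Atp5f1d at 0.65 (95% interval -0.03 to 1.33), Ndufs3 at 0.59 (0.09 to 1.10) and Sdhd at 0.51 (0.04 to 0.97). The 95% intervals had a median half-width of 0.44, and 27 of 87 lay within 0.5 of 0 and 77 within 1, so smaller differences were not detectable.

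In F344lyp against F344 islets 0 members were called with limma, 8 had an unadjusted p under 0.05 (17.2% of all genes did), and 1.58% of all genes were called higher and 0.317% lower. The median was 0.18, beside 0.04 over all genes. Ndufs8 was at 0.83 (95% interval 0.00 to 1.65), Uqcrc2 at 0.81 (limma adjusted p = 0.0514) and Ndufs1 at 0.67 (limma adjusted p = 0.066). Uqcrc2 and Ndufs1 are higher on both F344lyp arrays than on both F344 arrays. With only these 4 arrays in the fit, 11 of 87 members were called, all higher, beside 8.42% of all genes higher and 3.24% lower. The test of the difference between the lyp effects on the JB and F344 backgrounds called 0 members, with 2 at an unadjusted p under 0.05 (8.68% of all genes), and 0.429% of all genes lower and 0.0492% higher. These 2 were Uqcrc2 at -0.68 (SE 0.24) and Ndufs1 at -0.60 (SE 0.21).

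The 2 arrays of a group differed most in the JB lines. The array labelled replicate 1 was above replicate 2 for 69 of 87 members in JB, by a median of 0.27, and for 72 in JBlyp/lyp, by a median of 0.42. The gap was at least 0.5 in 38 members in JBlyp/lyp, beside 23.4% of all genes, and in 2 members in DR+/+ (6.34%). A gap over 0.5 in both JB and JBlyp/lyp, replicate 1 above, was found for 21 members and 6.41% of all genes. Over the 87 members the gaps of the 2 groups had a Pearson correlation of 0.79, as a description of genes that share the same 4 arrays. Ndufs7 had the largest gaps, 1.22 and 1.73, followed in JBlyp/lyp by Cox4i1 (1.03 and 1.58), Uqcr10 (0.58 and 1.56) and Uqcrq (1.04 and 1.51). Acinar markers differ the same way, with list medians of 11.89 and 11.04 in JB and 11.79 and 10.61 in JBlyp/lyp. Without the first arrays of both groups 70 members were called lower in BB than in F344 and 0 higher, beside 30.2% and 18.2% of all genes. Without the second arrays 56 were called lower and 2 higher, beside 25.8% and 15.2%.

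**Figure D5:**
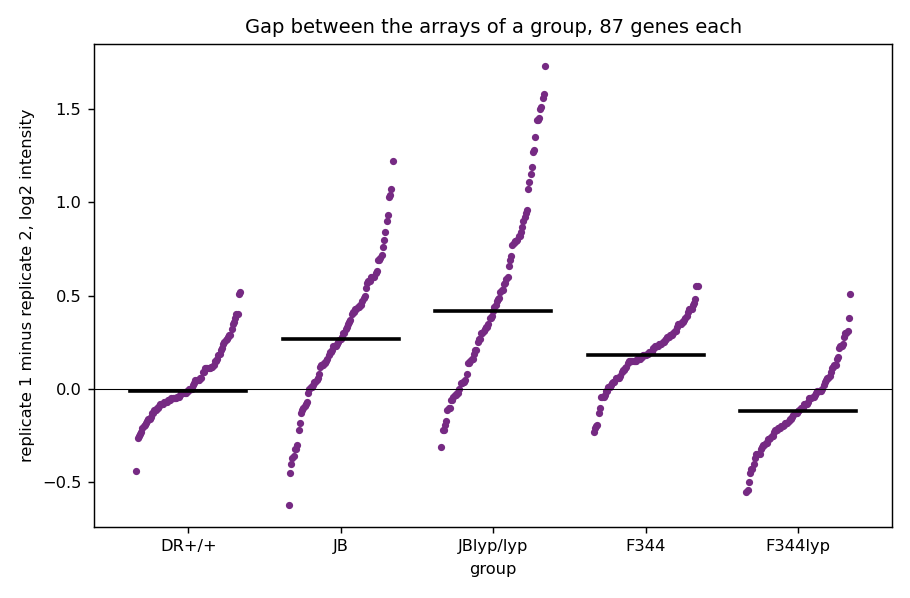
Gap between the 2 arrays of a group (replicate 1 minus replicate 2, log2 intensity, vertical axis) for each of the 87 genes, sorted within each of 5 groups (horizontal axis), with a bar at the median. The medians are -0.01 in DR+/+, 0.27 in JB, 0.42 in JBlyp/lyp, 0.18 in F344 and -0.12 in F344lyp.

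Genes of neighbouring mitochondrial pathways were counted in the contrast of BB with F344 from lists of the same kind. Beside their counts stand 24.6% of all genes called lower and 13.3% called higher. Of 73 genes of the mitochondrial ribosome, which makes the subunits encoded in the organelle, 41 were lower and 1 higher (median -0.49), with Mrpl20 at -1.31 (SE 0.12). Of 8 adenine nucleotide and phosphate carriers, porins and their partners, 7 were lower (median -0.76): Ucp2, an uncoupling protein, fell by 1.25 (SE 0.13), Ckmt1, mitochondrial creatine kinase, by 1.23 (SE 0.10) and Slc25a4, an ADP/ATP carrier, by 0.99 (SE 0.12). Of 15 citric acid cycle genes 8 were lower and 0 higher (median -0.32), led by Suclg1, of succinyl-CoA ligase, which fell by 1.16 (SE 0.11). Of 11 genes that feed electrons to the chain beside complexes I and II, 5 were lower (median -0.37), led by Etfb of the electron transfer flavoprotein, which fell by 1.06 (SE 0.12).

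Protein import had 12 of 24 lower and 1 higher (median -0.35), led by Timm13, which fell by 1.43 (SE 0.34). Assembly factors of complexes II to V had 14 of 33 lower and 1 higher (median -0.35), with Cox14 falling by 1.28 (SE 0.14) and Oxa1l, the inner membrane insertase, by 0.94 (SE 0.11). Regulators of mitochondrial gene expression had the median nearest 0 of these lists, -0.07. Of 17, 5 were lower and 2 higher, near the shares of all genes, 24.6% and 13.3%. Ssbp1, which binds mitochondrial DNA, fell by 0.85 (SE 0.11), Polrmt, the mitochondrial RNA polymerase, fell by 0.64 (SE 0.10), and Gabpa rose by 0.73 (SE 0.12). Gabpa read 8.0 and 8.59 in DR+/+, 7.56 and 7.83 in JB, 7.87 and 7.91 in JBlyp/lyp, 6.93 and 7.04 in F344, and 7.46 and 7.52 in F344lyp, with every BB array above every F344 array.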

How the data were processed

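Islet RNA of 10 rat samples, 2 in each of 5 groups given by the titles, was measured on Affymetrix arrays. The deposited values are log2 intensities, 1 per probe set and array, and the submitters' processing notes name GCOS and RMA as tools, with no version. Of 31099 probe sets, 57 controls were set aside and 31042 tested, of which 20826 carry 1 gene symbol. The 87 members all matched RefSeq by gene identifier.

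A mean per group was fitted over all 10 arrays with limma 3.58.1 (R 4.3.3, lmFit and eBayes, 5 residual and 4.72 prior degrees of freedom), contrasts were tested two-sided, and Benjamini-Hochberg adjustment ran over all probe sets tested. The fit was also run on simulated data with independent noise and no spread between groups beyond the added differences. That run therefore does not bear on calls that depend on the spread between groups. The number of arrays limits the precision. The members and lists were chosen with earlier results of these data known. Named for BB against F344 were up to 4 called members per role with the largest difference, every member called higher and all of complex II, for other comparisons up to 6, the tissue-restricted isoforms, and up to 3 genes per neighbouring list. Other members were named after their values were seen. Alternatives were other centring, filter, probe set rule, blocks, covariate, groups in the fit and arrays left out. Leaving out the first, or the second, JB and JBlyp/lyp arrays together was added after seeing the data. Python 3.11.15 with matplotlib 3.10.9 made the figures.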

Additional observations from a re-analysis of the deposited data

How the results depend on the processing

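Between BB and F344, 59 members were called in either direction. The count fell to 31 with 1 mean per side, to 9 with the group as a random block, to 38 without the DR+/+ arrays (37 lower, 1 higher, Ndufs1) and to 0 with the Gapdh 3′ minus 5′ difference as a covariate, under which Uqcrfs1 turned to 0.52 (adjusted p 0.877). That covariate left 0 called for JB against F344, JBlyp/lyp against F344lyp and DR+/+ against F344, and 16 for DR+/+ against JB. JB against F344 had 14 called without the DR+/+ arrays. JBlyp/lyp against F344lyp had 11 with either centring and 4 with only its groups in the fit. F344lyp against F344 had 1 with the mean of all probe sets of a gene and 11 with only its groups. The cause of these moves was not tested, beyond the smaller number of arrays in some fits. Calls over all genes moved too. For BB against F344 the share called lower went from 24.6% to 16.2% with centring on the median gene. It was 2.83% with the group as a random block and 0.0141% with the Gapdh covariate. The share called higher went from 13.3% to 31.3%, 0.935% and 0.00703%. A moved count is therefore not by itself a result about the members. Without 1 array the counts ran from 42 to 71 for BB against F344, 1 to 30 for JB against F344, 1 to 43 for JBlyp/lyp against F344lyp, 30 (without the first F344 array) to 62 for DR+/+ against F344, 12 to 36 for DR+/+ against JB (12 and 14 without a DR+/+ array, 15 without the first JB array) and 0 to 1 for F344lyp against F344, and were 0 for the other 2 lyp contrasts. With the first JB and JBlyp/lyp arrays left out the counts were 37, 53 and 7 for JB against F344, JBlyp/lyp against F344lyp and F344lyp against F344. With the second left out they were 13 for JBlyp/lyp against F344lyp, 48 for DR+/+ against JB and 7 for F344lyp against F344. A replicate block gave 66 for BB against F344, 2 for F344lyp against F344, and moved no other count by over 1.5 times. The numbers were not taken to pair the samples: the labels name no shared litter or day, each group has 2 arrays, and same-numbered deviations correlated over 0.1 in 5 of 10 pairs of groups, from -0.101 (DR+/+ with JBlyp/lyp) to 0.652 (JB with JBlyp/lyp). A single array left in a group is taken to vary like the other groups.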
